A study of Mus musculus with 12 samples.

Results

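Genipin and N-acetylcysteine (NAC) were each given to activated mouse CD8 T cells alone and together, so the 4 groups form a 2 by 2 design in which the interaction of the compounds can be measured gene by gene. All 12 libraries of the series entered, 3 in each of the groups genipin+NAC, genipin, NAC and vehicle (culture medium). Every group held CD8 T cells of pmel-1 mice, which carry a transgenic T cell receptor against the melanoma antigen gp100, with a wild-type Ucp2 gene. The cells were activated in culture and grown in IL-2 at 10 ng/ml for 4 days. Activation was by peptide or by antibodies to CD3 and CD28, with no label that tells these routes apart here. Doses are not stated, nor is it stated if the 3 libraries of a group are separate cultures or animals, so the p-values reflect only the spread between libraries, which may be technical.

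Genipin is a plant iridoid that cross-links amines and is used as an inhibitor of UCP2, a carrier of the inner mitochondrial membrane. NAC is a thiol compound that cells convert to cysteine, the limiting building block of glutathione. Several programmes of an activated T cell bear on the results. Hypoxia-inducible factor (HIF) drives glucose uptake, glycolysis and mitochondrial turnover, and its prolyl hydroxylases mark it for destruction when oxygen is available. T cell receptor signals raise immediate early genes, granzymes and inhibitory receptors, and dividing cells raise replication genes before mitosis genes. Members of the HIF family bind a core of the letters ACGTG, while many mitosis promoters hold a cell cycle homology region whose core is TTTGAA.

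Promoters of 4 genes from the lists with the clearest reversals are shown as background, and their part in the results below was not tested. They are RefSeq sequences of build GRCm38.p6, each with 250 bases before and 50 bases after the start site, read 5′ to 3′ on the gene's strand. Capitals mark the ACGTG core on either strand in Bnip3 (chr7:138909457-138909756, minus strand), Egln3 (chr12:54203825-54204124, minus strand) and Pgk1 (chrX:106186850-106187149, plus strand), and TTTGAA in Mki67 (chr7:135716330-135716629, minus strand).
Bnip3: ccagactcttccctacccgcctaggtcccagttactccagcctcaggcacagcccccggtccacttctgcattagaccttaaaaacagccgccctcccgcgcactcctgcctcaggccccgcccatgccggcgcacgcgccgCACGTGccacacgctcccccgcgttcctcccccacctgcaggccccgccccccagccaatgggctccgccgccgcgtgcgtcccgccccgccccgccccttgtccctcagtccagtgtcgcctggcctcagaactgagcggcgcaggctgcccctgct
Egln3: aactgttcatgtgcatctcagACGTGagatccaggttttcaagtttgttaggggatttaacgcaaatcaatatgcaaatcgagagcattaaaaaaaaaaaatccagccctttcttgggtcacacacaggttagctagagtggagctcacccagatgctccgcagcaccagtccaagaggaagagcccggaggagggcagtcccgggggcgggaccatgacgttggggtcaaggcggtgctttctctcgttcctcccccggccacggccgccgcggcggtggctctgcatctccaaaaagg
Pgk1: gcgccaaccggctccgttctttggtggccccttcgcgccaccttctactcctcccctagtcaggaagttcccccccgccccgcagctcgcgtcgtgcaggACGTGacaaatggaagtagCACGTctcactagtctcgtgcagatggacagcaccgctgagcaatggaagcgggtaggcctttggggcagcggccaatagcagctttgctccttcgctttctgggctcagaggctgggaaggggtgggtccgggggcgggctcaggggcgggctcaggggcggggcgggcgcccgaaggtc
Mki67: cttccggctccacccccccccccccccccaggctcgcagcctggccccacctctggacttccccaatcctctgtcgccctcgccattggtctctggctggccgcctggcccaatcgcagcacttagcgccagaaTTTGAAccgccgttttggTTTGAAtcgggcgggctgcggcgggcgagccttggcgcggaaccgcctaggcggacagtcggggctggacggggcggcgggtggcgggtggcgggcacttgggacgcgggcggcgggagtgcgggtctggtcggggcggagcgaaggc
In Bnip3 a pair of overlapping matches on opposite strands starts at -108 and -107 from the start site, in Egln3 1 match starts at -229, in Pgk1 2 start at -150 and -131, and in Mki67 2 start at -116 and -98. Over both strands, the ACGTG core was found in 12 of 14 HIF targets with a promoter entry (85.7%) and in 13 of 19 glycolysis genes (68.4%). Over all 27025 genes with an entry it was found in 21.8%. It was found in 6 of 19 mitosis genes (31.6%) and 7 of 17 replication genes (41.2%). The TTTGAA core was found in 14 of 19 mitosis genes (73.7%), against 20.2% of all 27025 genes. It was found in 2 of 17 replication genes (11.8%), 2 of 14 HIF targets (14.3%) and 3 of 19 glycolysis genes (15.8%). The 27025 genes include genes not tested here, while the lists hold only tested genes. A match describes letters in this window and is not a measured binding site.

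The libraries held 20838894 to 31098648 expected counts, and 13636 of 55450 listed genes passed the filter on low counts. Levels are given as CPM (counts scaled to a common library total), and are therefore relative. In bulk RNA, fewer cells of a type and less RNA per cell cannot be told apart. Replicate 1 of genipin+NAC stood apart from its group, with a chi-square per degree of freedom of 6.77 and 7.75 against the other two, where those gave 2.08 and the pairs of the other groups 2.18 to 2.89. Without it, 7237 genes in place of 7008 were called for the interaction, and no gene named below lost or changed its call.

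The interaction is the log2 fold change of genipin+NAC over NAC minus that of genipin over vehicle. A value of 0 means that the fold changes of the compounds multiply, a positive value that genipin moved the gene higher, or less far down, with NAC than without it. A gene was called at an adjusted p under 0.05 in the quasi-likelihood test of edgeR, with Benjamini-Hochberg adjustment over all 13636 genes. This held for 7008 genes (51.4%), 3733 higher (27.4%) and 3275 lower (24.0%). Of these, 1345 had an interaction of at least 2-fold, 917 higher and 428 lower (9.86%, 6.72% and 3.14% of all genes tested). The split depended on scaling: without normalization factors 7424 genes were called, 2618 higher and 4806 lower, and the median interaction of all genes moved to -0.11, against 0.03 in the fit reported here.

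The called genes were sorted by what became of the genipin effect once NAC was present. In 1850 genes (13.6% of those tested) the genipin effect was reversed, called in opposite directions without and with NAC. In 2221 (16.3%) it was cancelled, called without NAC and not with it. In 878 (6.44%) it was weakened, smaller in the same direction. The remaining called genes with a genipin effect called with NAC were synergistic or conditional. The 845 synergistic genes (6.20%) moved further from vehicle, in the direction of the interaction, with both compounds than with either one and than the sum of the single log2 effects. Some reversed and cancelled genes also met this rule, but each gene was given a single class. In 1088 conditional genes (7.98%) genipin acted more strongly with NAC, or reached the threshold with NAC and not without it, but the change from vehicle with both compounds did not meet those conditions of synergy. In a further 126 (0.924%), termed unresolved, the genipin effect was called neither with nor without NAC. Of the genes not called, 2960 (21.7%) were additive: a single effect was called and the 95% interval of the interaction lay within 1.5-fold either way. Another 773 (5.67%) had that interval with no single effect, and in 2895 (21.2%) the interval was too wide to decide.

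**Figure D1:**
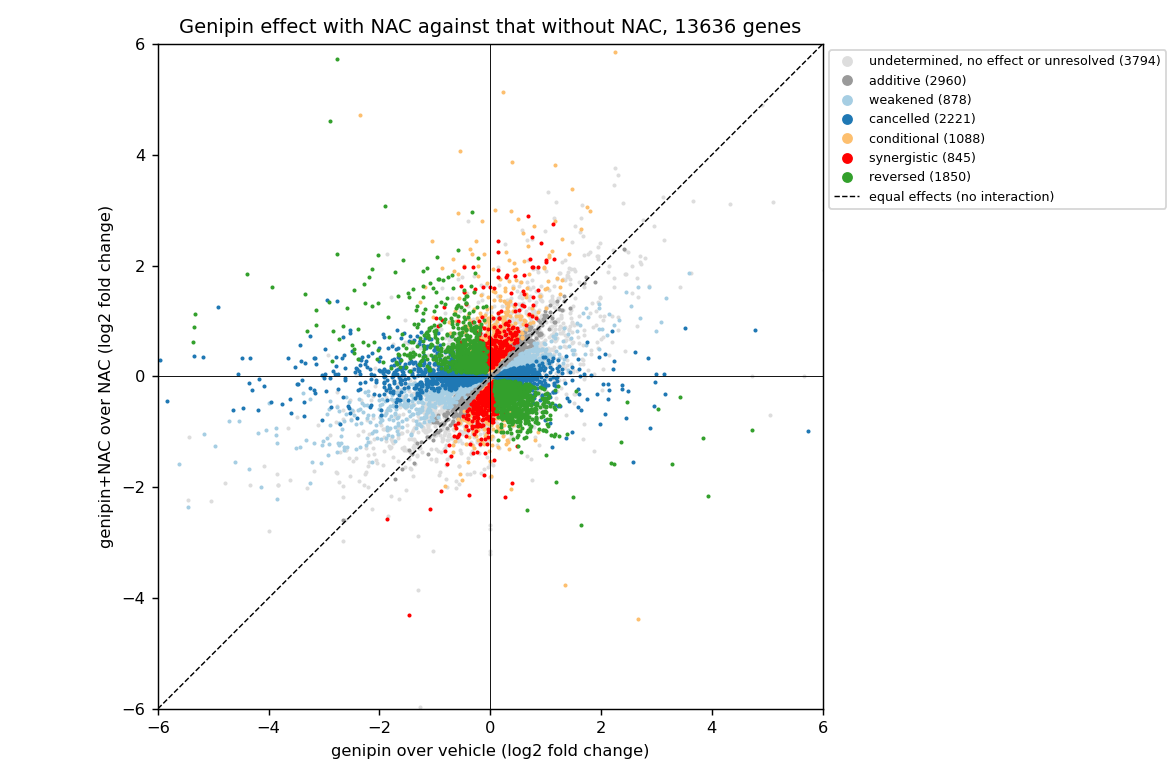
Log2 fold change of genipin+NAC over NAC (vertical) against that of genipin over vehicle (horizontal) for the 13636 genes tested, 1 point a gene, coloured by class, with 14 genes outside the plotted range. Genes on the dashed line show no interaction, the 1850 reversed genes fill the upper left and lower right, and the 2221 cancelled genes lie along the horizontal axis.

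The size of the interaction can be set beside that of each compound. Of the spread between the 4 group means on the log2 scale, summed over genes, NAC took 55.7%, genipin 28.2% and the interaction 16.1%. The genipin effect was called for 7239 genes with NAC (53.1%) and for 8312 without it (61.0%), and these effects come from separate libraries. The NAC effect was called for 9446 genes with genipin (69.3%) and for 8134 without it (59.7%). The interaction shares libraries with each of these contrasts.

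Among the gene lists other than cell type markers, HIF targets and glycolysis had the highest median interactions and mitosis and DNA replication the lowest. The medians were 1.85 for 18 HIF targets, 1.18 for 20 glycolysis genes, -0.91 for 23 replication genes and -1.34 for 22 mitosis genes, against 0.03 over all genes tested. Without normalization factors they were 1.70, 1.04, -1.05 and -1.49. In each of these lists every tested member was called in the direction of its median. Reversal by size was rarer: with every effect tested against 1.5-fold (glmTreat of edgeR), 9 HIF targets, 2 glycolysis genes, 4 mitosis genes and 1 replication gene were reversed, and 67 genes in all.

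**Figure D2:**
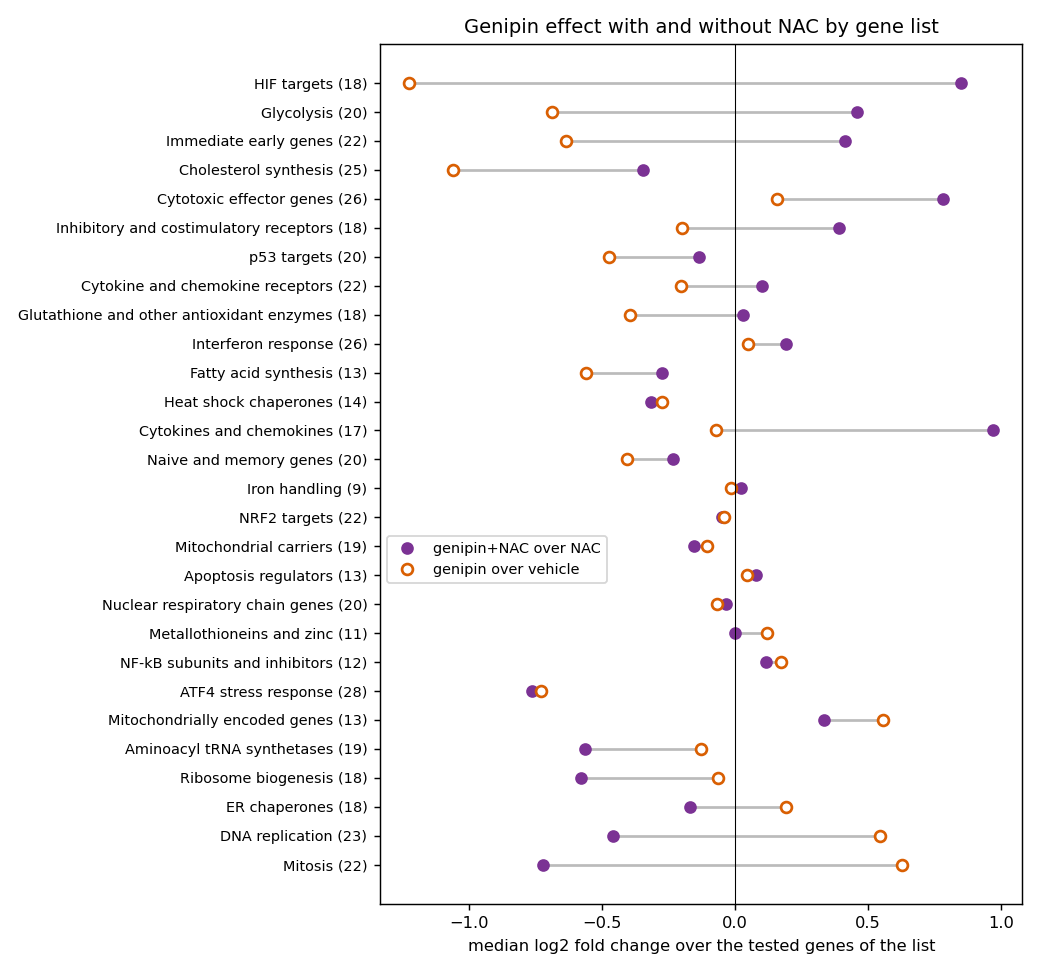
Median log2 fold change of each gene list for genipin+NAC over NAC (filled) and genipin over vehicle (open), with the number of genes tested beside each list, sorted by median interaction. The markers of HIF targets lie at 0.85 and -1.23, those of mitosis at -0.72 and 0.63, on opposite sides of 0.

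HIF targets moved in opposite directions under genipin depending on NAC. All 18 tested members were called higher for the interaction, where 27.4% of all genes were, and 16 of them were reversed, where 13.6% of all genes were. With NAC present, genipin raised 16 (26.6% of all genes rose) and lowered 1. Genipin over vehicle lowered all 18 (31.0% of all genes fell). With both compounds all 18 lay above vehicle (28.5% of all genes), although NAC alone raised 7 (29.6%) and lowered 5 (30.0%). Adm was too low to be tested.

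Bnip3, which directs mitochondria to degradation (ENSMUSG00000078566.8, chromosome 7, 138890836 to 138909519, minus strand, mm10), had 559.7, 522 and 519 CPM with genipin+NAC, 80.5, 80.1 and 76.8 CPM with genipin, 137, 150.1 and 148 CPM with NAC, and 263, 252 and 262 CPM with vehicle. The groups did not overlap, and its level was highest with both compounds and lowest with genipin alone. Its log2 change was 1.88 ± 0.04 (SE) for genipin+NAC over NAC and -1.71 ± 0.04 for genipin over vehicle. The interaction was 3.59 ± 0.05, with an adjusted p of 1.38e-21 in the quasi-likelihood test of edgeR (Benjamini-Hochberg), as for all adjusted p below.

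Egln3, a HIF prolyl hydroxylase that is itself a HIF target (ENSMUSG00000035105.5, chromosome 12, 54178981 to 54203860, minus strand), had 447, 461 and 457 CPM with genipin+NAC, 43.9, 43.8 and 48.6 CPM with genipin, 167, 163 and 166 CPM with NAC, and 140.2, 146 and 147 CPM with vehicle. Here NAC alone stood slightly above vehicle (0.20 ± 0.03), and only genipin alone fell below it. Its interaction was 3.13 ± 0.05 (adjusted p = 3.34e-21). Ero1l, an oxidase that forms disulfide bonds in the endoplasmic reticulum, had 1851, 1675 and 1679 CPM with genipin+NAC, 220, 213 and 205 CPM with genipin, 623, 652 and 646 CPM with NAC, and 603, 597 and 576 CPM with vehicle. The order was that of Egln3, with an interaction of 2.91 ± 0.05.

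Mgarp and Ankrd37 are less abundant and were also highest with both compounds and lowest with genipin alone. Ankrd37, an ankyrin repeat protein and HIF target, averaged 30.2 ± 2.15 CPM with genipin+NAC, 3.47 ± 0.146 with genipin, 6.996 ± 0.413 with NAC and 10.4 ± 0.997 with vehicle (SD, n = 3 each). Mgarp, a mitochondrial protein, averaged 25.5 ± 2.27, 1.40 ± 0.149, 11.1 ± 0.845 and 12.4 ± 0.204 CPM in these groups. Its interaction of 4.36 ± 0.14 was the highest of the genes eligible for naming. The members not reversed were P4ha2, described below, and Car9, the carbonic anhydrase of hypoxic cells, which was weakened and is named after its values were seen.

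Glycolysis genes followed the HIF targets at smaller size. All 20 were called higher for the interaction and 18 were reversed, where 27.4% and 13.6% of all genes were. With NAC present, genipin raised 18 and lowered 1 (26.6% and 26.5% of all genes). Genipin over vehicle lowered all 20 (31.0%), and with both compounds 18 lay above vehicle (28.5%). Their summed level was 25200 to 27110 CPM with genipin+NAC, 11300 to 11450 CPM with genipin, 20950 to 21430 CPM with NAC and 21450 to 21900 CPM with vehicle.

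Pgk1, phosphoglycerate kinase (ENSMUSG00000062070.12, chromosome X, 106187100 to 106203699, plus strand), had 3899, 3947 and 3988 CPM with genipin+NAC, 910.2, 908 and 911 CPM with genipin, 3246, 3268 and 3310 CPM with NAC, and 3420, 3443 and 3553 CPM with vehicle. Genipin alone left it far below the other groups, which lay close together, and the interaction was 2.20 ± 0.03 (adjusted p = 1.38e-21). A near-identical retrocopy of Pgk1 may share reads with it, so its level is less certain. Slc2a3, the glucose transporter GLUT3, behaved differently, with 860.3, 848 and 842 CPM with genipin+NAC, 202, 198 and 205 CPM with genipin, 269.5, 274 and 275 CPM with NAC, and 256, 254 and 255 CPM with vehicle. It stood out with both compounds, at 1.74 ± 0.03 over vehicle, while genipin alone (-0.34 ± 0.03) and NAC alone (0.10 ± 0.03) moved it little. Aldoc, an aldolase, had an interaction of 3.06 ± 0.06.

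**Figure D3:**
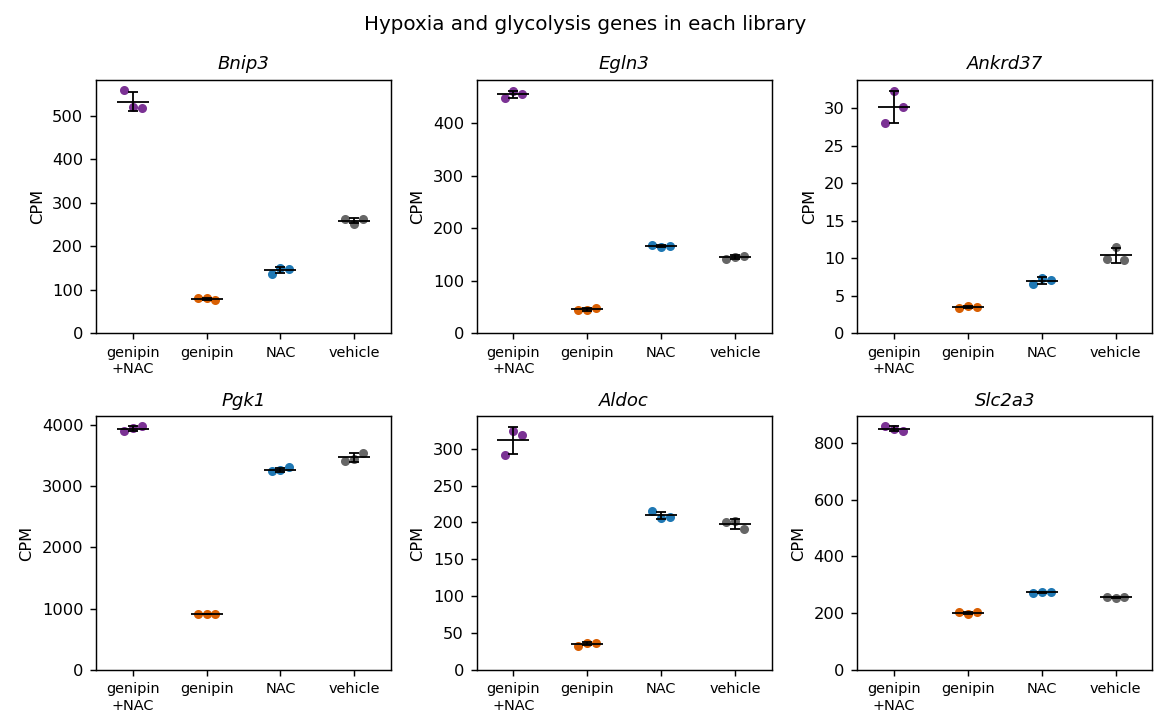
CPM of 3 HIF targets (upper row) and 3 glycolysis genes (lower row) in each of the 12 libraries, with the group mean and SD as bars. In all 6 panels the genipin libraries are lowest and the genipin+NAC libraries highest, with genipin+NAC means of 534 CPM for Bnip3 and 850.1 CPM for Slc2a3.

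Mitosis genes showed the mirror image. Each compound alone raised all 22 members, where 29.9% of all genes rose with genipin, 29.6% with NAC and 8.73% with each of them. With NAC present, genipin lowered all 22, where 26.5% of all genes fell, and all 22 were reversed. Together the compounds returned them close to vehicle, with 4 above it, 10 below it (28.9% of all genes fell) and a median of -0.08.

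Mki67, a nuclear protein of cycling cells (ENSMUSG00000031004.8, chromosome 7, 135689784 to 135716361, minus strand), had 346, 309 and 304 CPM with genipin+NAC, 765, 741 and 735 CPM with genipin, 459, 458 and 456 CPM with NAC, and 323, 315 and 315 CPM with vehicle. The genipin libraries were highest, the NAC libraries between, and the libraries with both compounds overlapped those with vehicle. The difference between both compounds and vehicle was 0.01 ± 0.04 (adjusted p = 0.887), and the interaction was -1.75 ± 0.05 (adjusted p = 5.7e-17). Plk1, a kinase of mitotic entry, had 35.4, 34.4 and 36.9 CPM with genipin+NAC, 76.3, 79.1 and 81.9 CPM with genipin, 70.9, 66.3 and 71.96 CPM with NAC, and 40.3, 39.2 and 39.5 CPM with vehicle, and Kif20a, a kinesin of cytokinesis, had an interaction of -1.85 ± 0.05. In Plk1 both single treatments lay well above vehicle and the combination below it.

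Replication genes moved in the same direction with a different starting point. All 23 were called lower for the interaction and 17 were reversed, where 24.0% and 13.6% of all genes were. With NAC present, genipin lowered 20 and raised 1 (26.5% and 26.6% of all genes). Genipin over vehicle raised 20 and lowered 1 (29.9% and 31.0%). NAC alone raised 13 and lowered 4 (29.6% and 30.0% of all genes), and with both compounds 21 of 23 lay below vehicle (28.9%). Rrm2, a subunit of ribonucleotide reductase, had 137, 143 and 143 CPM with genipin+NAC, 338, 340.5 and 332 CPM with genipin, 217, 217 and 224 CPM with NAC, and 201, 199 and 197 CPM with vehicle. Its level with both compounds was below every other group, at -0.50 ± 0.03 over vehicle, and the interaction was -1.40 ± 0.04. Mcm2, of the replicative helicase, averaged 101 ± 3.4 CPM with genipin+NAC, 174 ± 2.86 with genipin, 180.5 ± 1.17 with NAC and 125 ± 2.81 with vehicle (SD, n = 3 each). The transferrin receptor Tfrc, which imports iron, had an interaction of -1.20 ± 0.05.

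**Figure D4:**
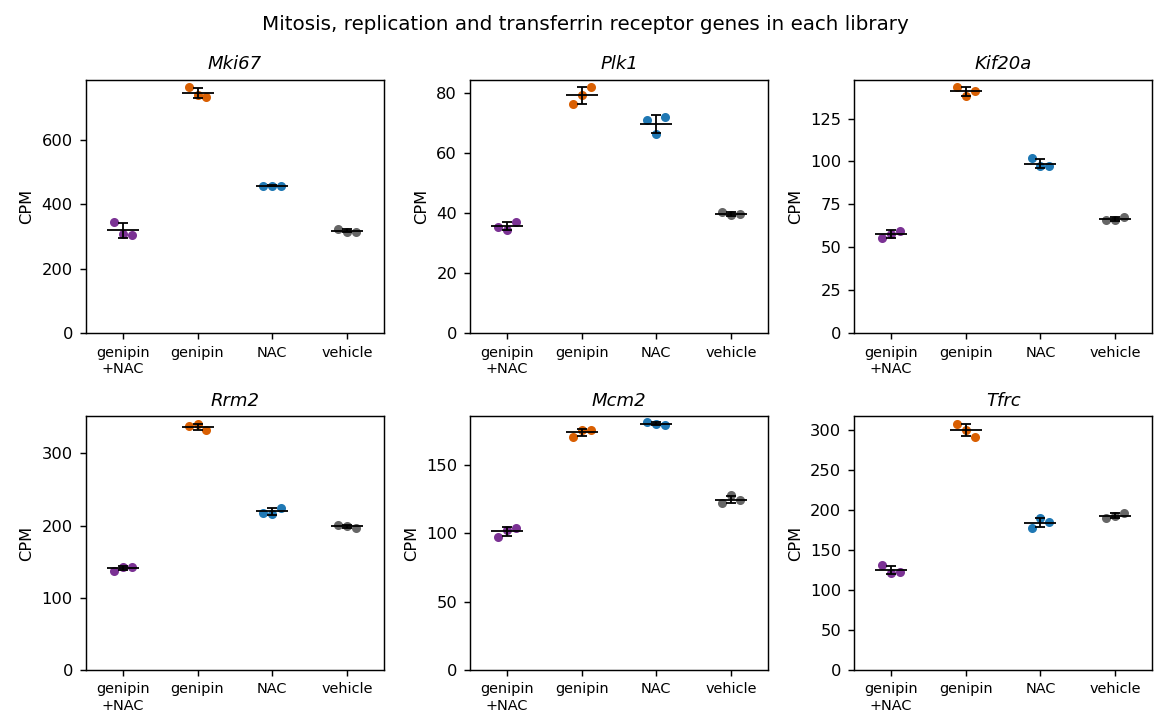
CPM of 3 mitosis genes (upper row), 2 replication genes and the transferrin receptor gene Tfrc (lower row) in each library, with the group mean and SD as bars. For Mki67, Plk1 and Kif20a genipin and NAC alone lie above vehicle, while genipin+NAC means are 320 CPM for Mki67 and 35.6 CPM for Plk1, near those with vehicle.

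Immediate early genes and inhibitory and costimulatory receptors were mostly higher for the interaction, where 27.4% of all genes were higher and 24.0% lower. Of 22 immediate early genes, 15 were called higher and 3 lower, with a median of 1.14, and 11 were reversed, where 13.6% of all genes were. Egr1, a zinc finger factor induced within minutes of activation, had 968, 1028 and 1050 CPM with genipin+NAC, 287, 284 and 290.2 CPM with genipin, 886, 869 and 866 CPM with NAC, and 901, 930.1 and 943 CPM with vehicle. Only genipin alone differed much from the other groups, and the interaction was 1.90 ± 0.04. Dusp5, a phosphatase of ERK, had an interaction of 1.74 ± 0.04. Of 18 inhibitory and costimulatory receptors, 12 were called higher and 3 lower, with a median of 0.64. Tnfrsf9, the costimulatory receptor 4-1BB, had 1256, 1326 and 1334 CPM with genipin+NAC, 281, 285 and 284 CPM with genipin, 993, 1003 and 991 CPM with NAC, and 782, 813 and 814 CPM with vehicle, and Ctla4, an inhibitory receptor, had an interaction of 1.96 ± 0.06. In Tnfrsf9 the combination was highest and genipin alone lowest, without overlap.

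Among cancelled genes the level with both compounds could be low or high. NAC alone moved 696 of the 2221 in the direction of genipin alone, moved 586 the other way and was not called in 939. Lrp1, an endocytic receptor (ENSMUSG00000040249.15, chromosome 10, 127538161 to 127621148, minus strand), had 4.82, 3.94 and 4.54 CPM with genipin+NAC, 2.28, 2.95 and 3.35 CPM with genipin, 4.23, 4.08 and 3.05 CPM with NAC, and 27.4, 29.5 and 30.3 CPM with vehicle. Each compound alone brought it near the level found with both, so that genipin+NAC over NAC gave 0.24 ± 0.14 (adjusted p = 0.164). The interaction was 3.58 ± 0.19. Cdh17, a cadherin, and Tmem40, a membrane protein, were also highest with vehicle and low in the other groups, with interactions of 2.84 ± 0.22 and 2.57 ± 0.22. P4ha2, a collagen prolyl hydroxylase, was of the other kind, with 23.9, 26.2 and 26.1 CPM with genipin+NAC, 1.12, 1.12 and 1.46 CPM with genipin, 25.8, 26.3 and 25.97 CPM with NAC, and 8.87, 9.43 and 9.36 CPM with vehicle. With NAC present its levels with and without genipin overlapped, while without NAC genipin left it far below vehicle. Genipin+NAC over NAC gave -0.04 ± 0.06, against -2.89 ± 0.12 for genipin over vehicle.

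Cholesterol synthesis was the list with most weakened members. Genipin over vehicle lowered 23 of 25 genes and raised 1 (31.0% and 29.9% of all genes). With NAC present, genipin lowered 20 (26.5% of all genes). The interaction was called higher in 20 and lower in 1 (27.4% and 24.0% of all genes), and 16 were weakened, where 6.44% of all genes were. The median genipin effect was -0.34 with NAC and -1.06 without it. Fdps, which makes farnesyl diphosphate (ENSMUSG00000059743.12, chromosome 3, 89093588 to 89101959, minus strand), had 331, 344 and 352 CPM with genipin+NAC, 123, 122 and 118 CPM with genipin, 439, 435 and 432 CPM with NAC, and 409.9, 419 and 416 CPM with vehicle. Genipin alone was lowest, the combination lay between, and NAC and vehicle were close together. Its interaction was 1.43 ± 0.04 (adjusted p = 4.24e-17), and that of Hmgcs1, an enzyme early in the pathway, was 1.27 ± 0.04. Without normalization factors the median interaction of the list was 0.60 in place of 0.74, with 3 members lower.

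Homing receptors were also weakened. Ccr7, the chemokine receptor for entry into lymph nodes, had 93.9, 106 and 105 CPM with genipin+NAC, 19.7, 19.7 and 17.03 CPM with genipin, 142, 141 and 140.4 CPM with NAC, and 109, 109 and 113 CPM with vehicle, with an interaction of 2.09 ± 0.07. S1pr1, the receptor for exit from them, had 32.2, 29.2 and 30.1 CPM with genipin+NAC, 11.02, 11.8 and 11.4 CPM with genipin, 41.03, 39.4 and 41.2 CPM with NAC, and 59.8, 60.2 and 57.3 CPM with vehicle, with an interaction of 1.96 ± 0.08. For both genes genipin alone gave the lowest levels, and the combination remained below NAC. Il7r, the interleukin 7 receptor, had an interaction of 1.01 ± 0.06. Of the 20 naive and memory genes, 9 were called higher, 5 lower and 6 not called (27.4% of all genes higher and 24.0% lower), so these receptors do not stand for the list.

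Granzymes and other cytotoxic genes were mostly higher for the interaction, and conditional was their most frequent class. Of 26 cytotoxic effector genes, 20 were called higher for the interaction and 3 lower (27.4% and 24.0% of all genes), with a median of 0.67, and 13 were conditional, where 7.98% of all genes were. With NAC present, genipin raised 20 and lowered 3 (26.6% and 26.5% of all genes). Genipin over vehicle raised 15 and lowered 7 (29.9% and 31.0%). NAC alone lowered 21 (30.0% of all genes), and with both compounds 17 remained below vehicle and 6 lay above it (28.9% and 28.5%). The 6 NK cell markers, some of which activated CD8 T cells also express, summed to 107.2 to 113.2 CPM with genipin+NAC, 205.8 to 217.9 CPM with genipin, 52.96 to 53.7 CPM with NAC and 106.9 to 110.4 CPM with vehicle. The 5 tested all rose with genipin with and without NAC, all fell with NAC alone, and 1 was called higher for the interaction. Most of the sum came from Eomes and Fcer1g, Klra8 never passed 1 count in a library, and the NK receptor gene Ncr1 averaged 0.147 CPM with genipin+NAC, 2.10 CPM with genipin, 0 with NAC and 0.0657 CPM with vehicle. The part of these markers in the changes of the cytotoxic genes was not tested.

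Gzmd, a serine protease of cytotoxic granules (ENSMUSG00000059256.6, chromosome 14, 56129556 to 56132608, minus strand), had 1057, 1065 and 1077 CPM with genipin+NAC, 1565, 1591 and 1608 CPM with genipin, 253, 248 and 246 CPM with NAC, and 1214, 1255 and 1290 CPM with vehicle. NAC alone was lowest, and genipin brought the level with NAC back near vehicle, by 2.10 ± 0.03 against 0.34 ± 0.03 without NAC. The interaction was 1.76 ± 0.04 (adjusted p = 3.99e-19). Gzmg had 291, 296 and 290.1 CPM with genipin+NAC, 426, 419 and 438 CPM with genipin, 63.5, 67.9 and 67.4 CPM with NAC, and 486, 489.8 and 512 CPM with vehicle and was reversed, since genipin over vehicle was -0.21 ± 0.03. Granzymes d, e and g are close copies, and the authors' estimation may have divided reads among them.

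Cxcr6, a chemokine receptor of tissue-resident and effector T cells, had 376, 334 and 332 CPM with genipin+NAC, 314, 303 and 294 CPM with genipin, 45.2, 42.9 and 44.02 CPM with NAC, and 237, 229 and 234 CPM with vehicle. Genipin and NAC moved it in opposite directions when given alone, and with both the level was above genipin alone. Its interaction was 2.60 ± 0.06 (adjusted p = 9.26e-19). Ccl5, a chemokine, shows that the sign can depend on scale, with 114, 115 and 117 CPM with genipin+NAC, 298, 311 and 316 CPM with genipin, 20.8, 19.7 and 21.6 CPM with NAC, and 122, 128 and 128 CPM with vehicle. Its log2 interaction was 1.19 ± 0.05, but in CPM the genipin effect with NAC was smaller than that without it by a difference of -87.8. Among all 7008 called genes 156 had the other sign on the CPM scale, 104 of them weakened, 43 conditional, and none of the 1850 reversed.

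Interferon response genes were low in both groups with NAC. NAC alone lowered 23 of 26, where 30.0% of all genes fell, and with both compounds 21 remained below vehicle, where 28.9% of all genes did. The interaction was called higher in 15 and lower in 6 (27.4% and 24.0% of all genes), with a median of 0.26. Of the 26, 9 were conditional, where 7.98% of all genes were. Mx1, an antiviral GTPase, had 44.9, 41.6 and 45.1 CPM with genipin+NAC, 102, 102 and 98.8 CPM with genipin, 18.3, 20.7 and 19.9 CPM with NAC, and 82.9, 86.8 and 82.2 CPM with vehicle, with an interaction of 0.89 ± 0.07. The combination lay above NAC alone and below vehicle without overlap. Irf7, the factor that amplifies interferon production, had an interaction of 1.01 ± 0.08.

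Synergistic genes included 379 that rose and 466 that fell beyond the sum of the single effects. Read from the NAC effect instead of the genipin effect, 671 of the 845 were again synergistic. The other classes depended more on which compound was read. Only 840 of 1850 reversed, 326 of 2221 cancelled, 41 of 878 weakened and 54 of 1088 conditional genes kept their class. Pdcd1, which encodes the inhibitory receptor PD-1 (ENSMUSG00000026285.7, chromosome 1, 94038305 to 94052553, minus strand), had 242, 255 and 258 CPM with genipin+NAC, 121, 117 and 119.9 CPM with genipin, 45.5, 43.2 and 43.7 CPM with NAC, and 69.5, 71.9 and 70.1 CPM with vehicle. Genipin alone raised it (0.76 ± 0.04) and NAC alone lowered it (-0.68 ± 0.04), yet both compounds gave 1.84 ± 0.03 over vehicle, with an interaction of 1.75 ± 0.05 (adjusted p = 4.2e-17). Kit, a receptor tyrosine kinase, had 237, 239.5 and 234 CPM with genipin+NAC, 34.1, 34.2 and 33.4 CPM with genipin, 54, 55.1 and 53.99 CPM with NAC, and 15.4, 14.4 and 16 CPM with vehicle, each compound alone raising it and both raising it most, with an interaction of 0.97 ± 0.06. Dixdc1, a Wnt pathway protein, had an interaction of 2.11 ± 0.10.

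**Figure D5:**
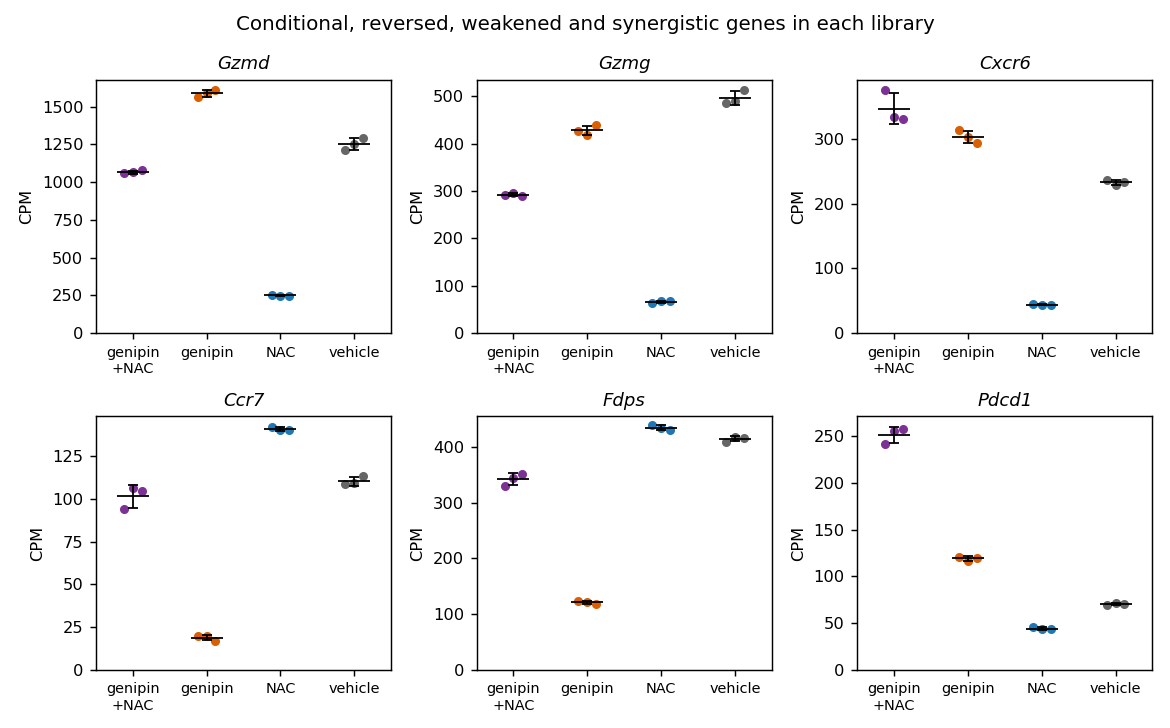
CPM of a conditional granzyme (Gzmd), a reversed granzyme (Gzmg), a conditional chemokine receptor (Cxcr6), 2 weakened genes (Ccr7 and Fdps) and a synergistic gene (Pdcd1) in each library, with the group mean and SD as bars. NAC alone is lowest for Gzmd, Gzmg, Cxcr6 and Pdcd1, and genipin alone is lowest for Ccr7 and Fdps.

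Every ribosome biogenesis gene tested fell with both compounds over vehicle. All 18 lay below vehicle with both, where 28.9% of all genes did. Genipin alone lowered 8 and raised 3 (31.0% and 29.9% of all genes), and NAC alone lowered 9 and raised 1 (30.0% and 29.6%). The interaction was called lower in 12 and higher in 1 (24.0% and 27.4% of all genes), with a median of -0.41, and 9 were synergistic, where 6.20% of all genes were. Nolc1, a nucleolar chaperone, had 53.3, 53.9 and 55.7 CPM with genipin+NAC, 106, 104 and 105 CPM with genipin, 107, 110.2 and 109 CPM with NAC, and 107, 107 and 110.1 CPM with vehicle. The combination lay far below all other groups, which were close together, and genipin over vehicle was -0.04 ± 0.03 (not called). The interaction was -0.96 ± 0.05 (adjusted p = 2.3e-13). Nop56, of the box C/D small nucleolar ribonucleoprotein, averaged 116 ± 3.33 CPM with genipin+NAC, 221 ± 1.91 with genipin, 199 ± 5.92 with NAC and 224 ± 6.34 with vehicle (SD, n = 3 each).

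Aminoacyl tRNA synthetases, which load tRNAs with amino acids, mostly moved the same way. Of 19 aminoacyl tRNA synthetases, 15 were called lower for the interaction and 2 higher (24.0% and 27.4% of all genes), with a median of -0.34. With both compounds 18 lay below vehicle, where 28.9% of all genes did. Aars, the alanine enzyme, had 146, 156 and 154 CPM with genipin+NAC, 188, 191 and 192 CPM with genipin, 278, 271 and 270.3 CPM with NAC, and 201, 198 and 193 CPM with vehicle. NAC alone was highest and the combination lowest, with an interaction of -0.79 ± 0.04. The exceptions were Dars, the aspartate enzyme, at 1.05 ± 0.05, and Sars, the serine enzyme, which is named after its values were seen. Slc7a5, the large neutral amino acid transporter, had an interaction of -1.05 ± 0.06. The ATF4 stress list, to which it belongs, was divided, with 11 called higher and 9 lower of 28 (27.4% and 24.0% of all genes). Its median interaction of -0.04 sat beside genipin medians of -0.76 with NAC and -0.73 without it. Without normalization factors 15 of these genes were lower.

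Additive genes could have large single effects. Il24, a cytokine, averaged 13.03 ± 0.505 CPM with genipin+NAC, 4.69 ± 0.496 with genipin, 78.5 ± 2.1 with NAC and 29.9 ± 1.36 with vehicle (SD, n = 3 each). Genipin lowered it by nearly equal amounts with NAC (-2.59 ± 0.06) and without it (-2.67 ± 0.08), and the interaction was 0.08 ± 0.10 (adjusted p = 0.552). Ifi213, an interferon-inducible gene, rose with genipin by 1.80 ± 0.09 with NAC and 1.72 ± 0.07 without it. Its interaction was 0.08 ± 0.11, although NAC alone lowered it (-1.48 ± 0.09). Cd8a and Cd8b1, the chains of the CD8 co-receptor, were additive too.

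Ucp2, the carrier that genipin is used to inhibit (ENSMUSG00000033685.13, chromosome 7, 100493337 to 100502020, plus strand), had deposited levels of 504.5, 529.0 and 522.7 TPM (length-scaled abundance) with genipin+NAC, 590.9, 598.1 and 620.7 TPM with genipin, 488.1, 513.0 and 500.0 TPM with NAC, and 694.6, 663.6 and 667.7 TPM with vehicle. Genipin moved it by 0.17 ± 0.03 with NAC present and by -0.27 ± 0.03 without NAC. This puts it in the reversed class with an interaction of 0.44 ± 0.05 (adjusted p = 1.4e-07). These log2 changes come from the scaled counts and not from TPM. In the TPM above, the libraries with genipin+NAC overlapped those with NAC, while genipin alone lay below vehicle without overlap. The size of the interaction was below 1.5-fold, and the test against 1.5-fold did not call it. The mitochondrial carriers as a list were divided, 8 of 19 called higher, 5 lower and 6 not called (27.4% of all genes higher and 24.0% lower).

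Genes of cysteine and glutathione handling and other redox genes did not follow a single course. Gclm, a subunit of the first enzyme of glutathione synthesis, had an interaction of -0.21 ± 0.09 (adjusted p = 0.0601), and Hmox1, heme oxygenase, one of 0.09 ± 0.11 (adjusted p = 0.519). Hmox1 averaged 13.5 ± 0.48 CPM with genipin+NAC, 12.2 ± 0.815 with genipin, 12.7 ± 0.969 with NAC and 12.3 ± 0.489 with vehicle (SD, n = 3 each). Slc7a11, the cystine importer, was near the detection limit, at 0.386 to 0.784 CPM with genipin+NAC, 0.116 to 0.219 CPM with genipin, 1.37 to 1.44 CPM with NAC and 0.542 to 1.04 CPM with vehicle, and its class could not be decided. Chac1, which degrades glutathione, had an interaction of 2.10 ± 0.14 and was weakened. Txnip, an inhibitor of thioredoxin, had 2147, 2090 and 2095 CPM with genipin+NAC, 639, 663 and 650.4 CPM with genipin, 1541, 1522 and 1516 CPM with NAC, and 967, 973 and 973 CPM with vehicle, with an interaction of 1.04 ± 0.03. Its level was highest with both compounds and lowest with genipin alone. Of 18 glutathione and antioxidant enzymes, 12 were called higher and 1 lower, with a median of 0.34. Of 22 NRF2 targets, 10 were called higher and 4 lower (27.4% and 24.0% of all genes).

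The CD8 T cell markers, a list that includes Cd4 as a gene expected to be low, summed to 3506 to 3587 CPM with genipin+NAC, 3029 to 3104 CPM with genipin, 3074 to 3101 CPM with NAC and 2991 to 3064 CPM with vehicle. Of these markers, 3 of 7 were called higher for the interaction. Over all genes 27.4% were called higher and 24.0% lower, and these shares also stand beside the counts below. Markers of other cells were mostly near 0: Siglech, S100a8 and Elane had 0 counts in every library, which allows up to 3 counts, and Ms4a1, Pax5, Csf1r, Lyz2 and Mpo never passed 7. Single markers were present and moved. The 8 neutrophil and mast cell markers, of which 3 were tested and 2 called higher, summed to 251.7 to 256.1 CPM with genipin+NAC, 63.0 to 63.9 CPM with genipin, 58.3 to 60.2 CPM with NAC and 28.0 to 31.3 CPM with vehicle. In the same order of groups, Kit averaged 237, 33.9, 54.4 and 15.3 CPM and Cpa3 16.1, 13.6, 4.05 and 7.48 CPM. Mcpt8 averaged 1.33, 15.8, 0.391 and 6.85 CPM. Kit thus held most of the sum in the groups with NAC, while Cpa3 and Mcpt8 held a large part in the groups without it. The 7 dendritic cell markers, of which 5 were tested, 3 called higher and 1 lower, summed to 88.0 to 94.6, 26.5 to 32.4, 60.9 to 63.9 and 45.8 to 47.6 CPM in these groups. The 7 macrophage and monocyte markers, 2 tested and both called higher, summed to 65.0 to 76.1, 13.8 to 14.4, 52.7 to 57.0 and 34.0 to 39.2 CPM. The 7 B cell markers, 2 tested and 1 called lower, reached 158.6 to 158.7 CPM with genipin+NAC and 191.5 to 204.7 CPM with NAC, mostly from Ighm, and 59.1 to 63.9 CPM with genipin and 41.3 to 42.7 CPM with vehicle. Their part in the interactions above was not tested.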

How the data were processed

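Total RNA of 12 libraries was sequenced as paired reads of 150 bases after removal of ribosomal RNA, with a stranded kit per the labels. The submitters' processing notes name bcl2fastq, cutadapt 1.18, STAR 2.7.0f and RSEM 1.3.1 with the mm10 genome. The authors deposited expected counts per gene, which RSEM estimates by dividing reads among genes, and TPM, per the file headers. TPM were used only for levels of Ucp2. All 55450 gene IDs matched GENCODE M21, which gave the coordinates.

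Expected counts were rounded, filtered with filterByExpr of edgeR 4.0.16 (R 4.3.3) to 13636 genes and scaled with TMM factors of 0.961 to 1.05. A quasi-likelihood fit with 1 mean per group (8 residual and 12.6 prior degrees of freedom, common biological coefficient of variation 0.0393) gave all contrasts from the 12 libraries. SE was derived from the log2 fold change and its F statistic. CPM used the scaled totals. In 368 tested genes a group averaged under 3 counts per library, and these were given no interval for the additive class. The steps were tested on simulated data. Alternatives were RLE factors or none, DESeq2 1.42.0, limma-voom 3.58.1, other filters and thresholds, glmTreat, replicate number as a block, omission of each library, the CPM scale, other additive bounds and, added after seeing the data, classes read from the NAC effect.

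Named genes are Ucp2 and the 6 highest and 6 lowest interactions among eligible called genes. Eligible genes had a mean of at least 5 CPM and at least 1 CPM in each group. Also named are the 4 largest in each class and up to 3 members per list with the smallest p. Further ones are 3 genes under 1 CPM in a group, and Slc7a11, Gclm, Hmox1 and Chac1 for cysteine and glutathione handling and other redox genes. The text describes a part of the named genes. The members, lists and tests were chosen with earlier results of these data known. Figures were drawn with matplotlib 3.10.9.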

Additional observations from a re-analysis of the deposited data

Results flagged for a closer look

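A difference between the genipin effects with and without NAC, tested as the interaction, was found for 7008 genes, and every one of them meets the condition for a closer look. The 12 extremes among the genes eligible for naming are given here as log2 interactions. The highest were Mgarp at 4.36, Me1 at 4.13, Arrb1 at 3.98, Ankrd37 at 3.68, Bnip3 at 3.59 and Lrp1 at 3.58. The lowest were Asb2 at -3.81, Hpgds at -2.92, Serpina3g at -2.16, Plk1 at -1.96, Depdc1b at -1.92 and Kif20a at -1.85.

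Me1, a malic enzyme that makes NADPH, had 10.6, 9.78 and 10.3 CPM with genipin+NAC, 2.28, 1.65 and 1.90 CPM with genipin, 5.66, 6.27 and 5.48 CPM with NAC, and 19.6, 17.8 and 20.97 CPM with vehicle. Arrb1, the adaptor beta-arrestin 1, had 261, 245 and 249 CPM with genipin+NAC, 23.1, 23.2 and 21.3 CPM with genipin, 73.3, 71.8 and 73.8 CPM with NAC, and 98.7, 105 and 106 CPM with vehicle. Both were lowest with genipin alone, but Arrb1 was highest with both compounds and Me1 with vehicle. Asb2, a subunit of a ubiquitin ligase, had 6.16, 6.09 and 7.29 CPM with genipin+NAC, 22.3, 20 and 23.3 CPM with genipin, 8.65, 8.99 and 7.84 CPM with NAC, and 2.11, 2.003 and 1.97 CPM with vehicle. Hpgds, a prostaglandin D synthase, had 3.49, 3.90 and 3.73 CPM with genipin+NAC, 18.2, 16.6 and 15.1 CPM with genipin, 5.84, 4.87 and 4.64 CPM with NAC, and 3.13, 2.96 and 2.96 CPM with vehicle. Serpina3g, a protease inhibitor, had 22.4, 19.8 and 20.6 CPM with genipin+NAC, 55.8, 54.03 and 57.6 CPM with genipin, 12.5, 11.9 and 11.2 CPM with NAC, and 6.76, 7.14 and 7.25 CPM with vehicle. In these last genes genipin alone stood above all other groups without overlap. Groups of 3 libraries are too small for the test of single outlying samples.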

How the results depend on the processing

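The interaction was called for 6176 to 7424 genes under other scalings, tools and filters and 5631 at an adjusted p under 0.01. Leaving out 1 library gave 6641 to 7237 genes, 1662 to 2013 reversed and 2057 to 2367 cancelled. No named gene changed direction on the log2 scale. Outside the size thresholds, all HIF, glycolysis, mitosis and replication genes tested in an alternative were called in the direction given, except 1 replication gene at an adjusted p under 0.01, without genipin replicate 2 and without NAC replicate 1. The classes depend on the threshold. A change of at least 2-fold left 1345 interactions (917 higher, 428 lower), 805 genipin effects with NAC, 1336 without, 1995 NAC effects with genipin, 1352 without and 1083 for both compounds over vehicle. The classes were then 53 reversed, 574 cancelled, 48 weakened, 56 synergistic, 159 conditional, 455 unresolved, 127 additive, 5610 undetermined and 6554 without effect. With glmTreat against 1.5-fold the counts were 1431 (932 higher, 499 lower), 832, 1473, 2589, 1423 and 1105, and the classes 67, 609, 41, 71, 202 and 441 in the order above up to unresolved. Undetermined genes were 12119 without a filter and 254 at a mean of 5 CPM, with 77 unresolved there. At an adjusted p under 0.01, 534 were weakened and 1427 had no effect. With the narrower additive bound 1874 were additive and 427 without effect. Read from the NAC effect, 1458 were reversed, 1090 cancelled, 670 weakened, 1250 synergistic, 2459 conditional and 81 unresolved. At 5 CPM the NAC share of the spread was 53.8% and the interaction 17.9%. In CPM the interaction turned negative for Bst1 (-0.666), Ccl5 (-87.8), Eomes (-1.25) and Sema6d (-5.20). With the replicate block 6958 interactions were called. After group means were removed, the correlations between same-numbered libraries ran from -0.0751 to 0.0437 over 18 pairs. The closest match of a library carried the same number in 4 of 12 cases. This gives no sign of pairing by number, but with 3 libraries per group it cannot exclude a shared mouse or culture. Gclm passed the threshold without normalization factors (-0.35). Depth limits the 368 genes with under 3 counts per library in a group.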

Other observations

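In several lists beyond those above a majority of the tested members were called on 1 side, where 27.4% of all genes were called higher and 24.0% lower. ER chaperones were called lower for the interaction in 15 of 18, none higher, with a median of -0.44. Creld2, a secreted ER stress protein, had 25.8, 25.98 and 27.03 CPM with genipin+NAC, 51.9, 53.1 and 52.4 CPM with genipin, 30.96, 30.8 and 28.9 CPM with NAC, and 32.4, 32.9 and 31.9 CPM with vehicle, highest with genipin alone. Of 20 p53 targets 14 were called higher and 3 lower, and Btg2, an antiproliferative gene, averaged 129 ± 3.01 CPM with genipin+NAC, 28.2 ± 0.744 with genipin, 84.03 ± 0.277 with NAC and 76.3 ± 2.99 with vehicle (SD, n = 3 each). Of 22 cytokine and chemokine receptors 16 were called higher and 4 lower, and of 13 fatty acid synthesis genes 7 were called higher and 2 lower. Of 13 mitochondrially encoded genes 7 were called lower and none higher. Their summed level was 15000 to 16390 CPM with genipin+NAC, 19620 to 20760 CPM with genipin, 13640 to 13970 CPM with NAC and 15510 to 15910 CPM with vehicle.

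Beside those shares of all genes, the numbers called higher and lower in the other lists were 5 and 5 of 14 for heat shock chaperones, 3 and 5 of 11 for metallothioneins and zinc genes, 3 and 4 of 12 for NF-kB subunits and inhibitors, 7 and 6 of 17 for cytokines and chemokines, 8 and 5 of 20 for nuclear respiratory chain genes, 4 and 2 of 9 for iron genes, and 5 and 3 of 13 for apoptosis regulators. The 1 red cell marker tested was not called.

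Genes with large interactions but under 1 CPM in a group are given as levels only. Tgm2, a transglutaminase, had 30.01, 29.8 and 28.1 CPM with genipin+NAC, 0.232, 0 and 0.0365 CPM with genipin, 19.3, 18.7 and 18.8 CPM with NAC, and 3.72, 3.96 and 4.25 CPM with vehicle, where 3 counts correspond to 0.109 to 0.134 CPM in the genipin libraries. Itgae, the integrin CD103, had 2.45, 2.10 and 2.03 CPM with genipin+NAC, 10.02, 12.9 and 13.02 CPM with genipin, 9.84, 9.41 and 9.98 CPM with NAC, and 0.845, 0.668 and 0.822 CPM with vehicle. Tgm2 was nearly absent with genipin alone and highest with both compounds, while Itgae was high with either compound alone and low with both or neither.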
